A study of Arabidopsis thaliana with 12 samples.

Results

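Transcript counts of 10 genes were followed among the 33602 genes of the count table: ZAT5, ZAT6, ZAT7, ZAT8, STZ (also ZAT10), ZAT11, RHL41 (also ZAT12), AZF1, AZF2 and AZF3. They were chosen by locus identifier as stress zinc fingers that carry ZAT or AZF names. The rule itself uses no measured value, but it was written with earlier results of these data known. The libraries came from whole Arabidopsis thaliana seedlings harvested at 7 days. The gp1-2 line, exposed to volatiles of GB03 or left untreated, carries the T-DNA insertion SAIL_209_D07 in the Col-0 background, and wild-type Col-0 seedlings were exposed or left untreated in the same way. At 5 days the seedlings were placed on a divided (Y) plate of the same medium, and GB03, a plant-growth-promoting rhizobacterium, was present for 2 days in the exposed groups and absent in the untreated ones. All seedlings grew on half-strength Murashige and Skoog medium with 1% sucrose. Each of the 4 groups holds 3 biological replicates. The labels name 1 insertion line and no interrupted locus, so effects of the line and of the insertion cannot be told apart.

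ZAT and AZF proteins are small transcription factors with a pair of Cys2/His2 zinc fingers. Many of them end in an EAR motif, through which plant repressors recruit TOPLESS co-repressors, and they act mainly as repressors. Their transcripts are known for rapid and short-lived induction by cold, salt, drought, wounding, strong light, oxidative stress and microbial patterns. MAP kinases such as MPK3 and MPK6 phosphorylate some of them, and WRKY, CAMTA and heat shock factors act on some of their promoters.

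All 10 genes passed the filter on low counts. The gene models of RefSeq assembly TAIR10.1 place STZ (AT1G27730) on chromosome 1 at 9648021 to 9649323 (minus strand) and RHL41 (AT5G59820) on chromosome 5 at 24102814 to 24103794 (plus strand). ZAT7 (AT3G46090, 16925881 to 16926883) and ZAT8 (AT3G46080, 16922514 to 16923299) lie near each other on the minus strand of chromosome 3. On chromosome 5 lie ZAT6 (AT5G04340, 1216058 to 1217362), AZF1 (AT5G67450, 26918765 to 26920179) and AZF3 (AT5G43170, 17330945 to 17331646), all on the minus strand. On chromosome 2 lie ZAT5 (AT2G28200, 12023940 to 12025370) and ZAT11 (AT2G37430, 15706285 to 15707224), both on the plus strand, and AZF2 (AT3G19580, 6802903 to 6804296, minus strand) lies on chromosome 3. The AZF2 gene is annotated with 2 transcripts, which hold 3 distinct exons between them. Each of the other 9 genes has 1 transcript with 1 exon. The coding sequences of ZAT7 and ZAT8 are 88.2% identical, and their transcripts share an identical stretch of up to 44 bases. How reads that fit both copies were counted is not given in the sources used here, so the division of reads between ZAT7 and ZAT8 is uncertain. The next most similar pairs of members were ZAT6 and STZ, with 71.7% coding identity, and ZAT8 and RHL41, with 71.1%.

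The 250 bases before the annotated start are shown for the 3 genes that differed most between genotypes, ZAT7, ZAT8 and RHL41, and for STZ, which had the highest level per kb of exon in untreated seedlings. They are RefSeq TAIR10.1 sequence, read 5′ to 3′ on the strand of the gene, at chr3:16926884-16927133 (minus) for ZAT7, chr3:16923300-16923549 (minus) for ZAT8, chr5:24102564-24102813 (plus) for RHL41 and chr1:9649324-9649573 (minus) for STZ. Capitals mark matches, on either strand, to TTGAC (the core of the W-box bound by WRKY factors), CGCGT (the core of the CAMTA site), ACGTG (the ABRE and G-box core), CCGAC (the DRE core) and GAANNTTC (a heat shock element unit).
ZAT7: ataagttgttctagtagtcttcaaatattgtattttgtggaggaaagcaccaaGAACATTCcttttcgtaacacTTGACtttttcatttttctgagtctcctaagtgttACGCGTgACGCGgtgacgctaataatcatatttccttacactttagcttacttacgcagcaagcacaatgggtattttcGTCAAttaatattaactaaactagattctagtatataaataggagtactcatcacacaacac
ZAT8: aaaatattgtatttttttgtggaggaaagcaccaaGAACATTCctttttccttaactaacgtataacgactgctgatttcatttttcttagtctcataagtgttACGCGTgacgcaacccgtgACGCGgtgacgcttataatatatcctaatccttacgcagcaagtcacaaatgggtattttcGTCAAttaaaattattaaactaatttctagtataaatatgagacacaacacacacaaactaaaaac
RHL41: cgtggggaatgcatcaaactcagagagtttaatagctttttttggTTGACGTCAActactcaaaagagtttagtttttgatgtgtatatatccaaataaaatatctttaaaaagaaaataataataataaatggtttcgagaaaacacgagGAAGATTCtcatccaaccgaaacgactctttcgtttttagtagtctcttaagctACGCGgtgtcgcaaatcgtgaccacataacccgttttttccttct
STZ: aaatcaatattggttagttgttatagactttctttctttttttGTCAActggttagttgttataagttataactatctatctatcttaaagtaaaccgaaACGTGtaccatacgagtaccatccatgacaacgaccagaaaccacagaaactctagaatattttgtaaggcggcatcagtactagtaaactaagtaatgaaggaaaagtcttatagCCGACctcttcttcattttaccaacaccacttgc

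TTGAC was found upstream of 8 of the 10 genes and of 44.9% of the 27443 promoters of the annotation. CGCGT was found upstream of ZAT7, ZAT8 and RHL41 only (3 of 10), and in 6.87% of all promoters. In ZAT7 and ZAT8 a palindrome (ACGCGT) holds overlapping matches on both strands, and a further match lies nearer the start. In RHL41 a pair of TTGAC matches on opposite strands lies end to end. GAANNTTC was found in 5 of 10, namely ZAT6, ZAT7, ZAT8, ZAT11 and RHL41, against 9.55% of all promoters. CCGAC was found in ZAT6, STZ and AZF2 (3 of 10), against 12% of all, and in AZF2 it shares bases with a TTGAC match. ACGTG was found in STZ only (1 of 10), against 22.9% of all, and no promoter match to any of the 5 motifs was found for AZF3. ZAT7, ZAT8 and RHL41 each held the CAMTA core, the W-box core and the heat shock unit, and no other member held these 3 motifs together. ZAT7 and ZAT8 are close copies whose windows share stretches of sequence, so their matches are not independent. The share of all promoters that hold the 3 motifs together was not counted. These matches describe letters in a window and were not tested as binding sites.

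**Figure D1:**
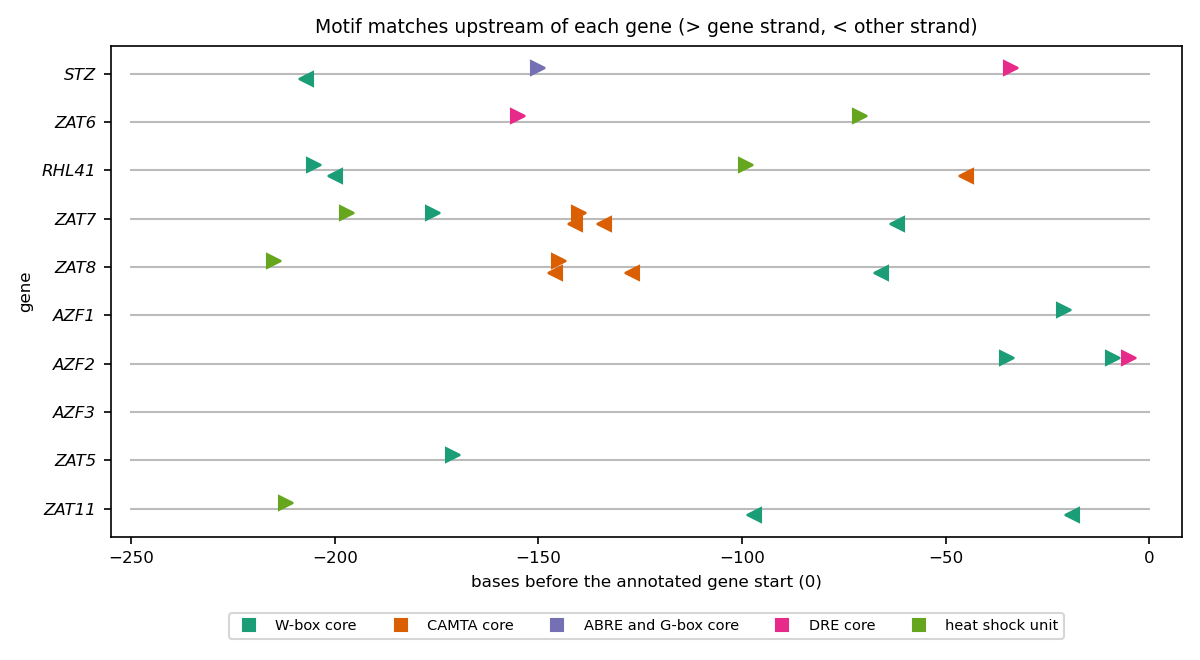
Positions of motif matches in the 250 bases before the annotated start of each gene (x axis, bases before the start; y axis, gene), with triangles pointing right for the gene's strand and left for the other strand. CGCGT (CAMTA core) is marked only in RHL41, ZAT7 and ZAT8, and AZF3 has no match.

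Total counts were 19583445 to 25214934 in gp1-2 with volatiles, 17908408 to 18725561 in untreated gp1-2, 15196962 to 15839067 in wild type with volatiles and 11158051 to 14999793 in untreated wild type. All gp1-2 libraries were deeper than all wild-type libraries, so counts thinned to the smallest library were tested as an alternative. The series title points to a stearoyl-ACP desaturase, and FAB2 (AT2G43710), a gene of that family, was higher in the libraries labelled gp1-2 than in wild type, at 550.8 to 745.6 CPM against 119.2 to 180.8 CPM, so its counts do not check the label. Root and shoot markers were detected in every group. The 3 seed storage and oil body genes summed to at most 0.86 CPM, and CRU3 was at 0 in every library. Differences were tested with edgeR over 20736 genes and called at an adjusted p under 0.05. In whole seedlings, fewer cells with a transcript and less transcript per cell cannot be told apart.

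Normalised read counts are given as CPM, counts set to one common library total after TMM scaling, edgeR's correction for library composition. STZ, a repressor induced by salt, cold and light stress, was at 69.4, 41.3 and 47.6 CPM in gp1-2 with volatiles and at 223.1, 175.5 and 104.6 CPM in untreated gp1-2. Wild-type seedlings had 6.87, 6.32 and 5.3 CPM with volatiles and 102.1, 52.2 and 25.1 CPM without. The 3 wild-type libraries with volatiles thus lay below all 9 others, and the untreated gp1-2 libraries lay above all others. ZAT6, a target of MPK6 with roles in root growth and metal tolerance, was at 15.6, 8.99 and 10.3 CPM in gp1-2 with volatiles and 71.8, 46.1 and 29.6 CPM in untreated gp1-2. It was at 5.54, 3.55 and 4.78 CPM in wild type with volatiles and at 51.5, 19.6 and 12.6 CPM in untreated wild type. The untreated libraries of the genotypes overlapped for ZAT6, whereas those with volatiles did not.

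RHL41, a gene named for its response to strong light and required for induction of the peroxidase gene APX1 under oxidative stress, was at 66.2, 55.4 and 55.5 CPM in gp1-2 with volatiles and 80.6, 63.7 and 52.9 CPM in untreated gp1-2. Wild-type seedlings had 5.01, 4.8 and 4.98 CPM of it with volatiles and 24.9, 14.2 and 9.56 CPM without. The exposed and untreated gp1-2 libraries overlapped, and every wild-type library lay below every gp1-2 library. ZAT7, a repressor linked to salt tolerance, was at 74.3, 52.3 and 48.3 CPM in gp1-2 with volatiles, 133.2, 121.5 and 90.0 CPM in untreated gp1-2, 1.54, 1.38 and 0.582 CPM in wild type with volatiles and 6.29, 3.55 and 1.91 CPM in untreated wild type. Its close copy ZAT8 was at 55, 39.8 and 45.6 CPM in gp1-2 with volatiles, 54.8, 43.9 and 39.8 CPM in untreated gp1-2, 0.667, 0.592 and 0.647 CPM in wild type with volatiles and 2.03, 1.61 and 0.765 CPM in untreated wild type. Both genes had 39.8 CPM or more in each gp1-2 library and 6.29 CPM or less in each wild-type library. In single wild-type libraries these values rest on as few as 9 reads for ZAT7 and 8 reads for ZAT8.

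AZF2 and AZF1 repress genes of the abscisic acid and auxin responses under osmotic stress. AZF2 was at 19.4, 15.8 and 14.6 CPM in gp1-2 with volatiles, 25.8, 24.3 and 17.4 CPM in untreated gp1-2, 5.34, 4.61 and 5.24 CPM in wild type with volatiles and 11.4, 11.2 and 9.85 CPM in untreated wild type. AZF1 was at 16, 9.08 and 8.61 CPM in gp1-2 with volatiles, 23.5, 22.8 and 18.5 CPM in untreated gp1-2, 4.87, 4.01 and 3.88 CPM in wild type with volatiles and 4.19, 6.37 and 7.93 CPM in untreated wild type. For both genes the gp1-2 libraries of a condition lay above the wild-type libraries of that condition. AZF3, a salt-responsive relative, ranged from 1.81 to 3.92 CPM over the 12 libraries. ZAT11, linked to cell death under oxidative stress and to primary root growth, ranged from 1.24 to 4.85 CPM. ZAT5 ranged from 5.67 to 11.2 CPM. The exposed gp1-2 libraries were the lowest of the 12 for ZAT5, whereas the untreated libraries of both genotypes overlapped for it.

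**Figure D2:**
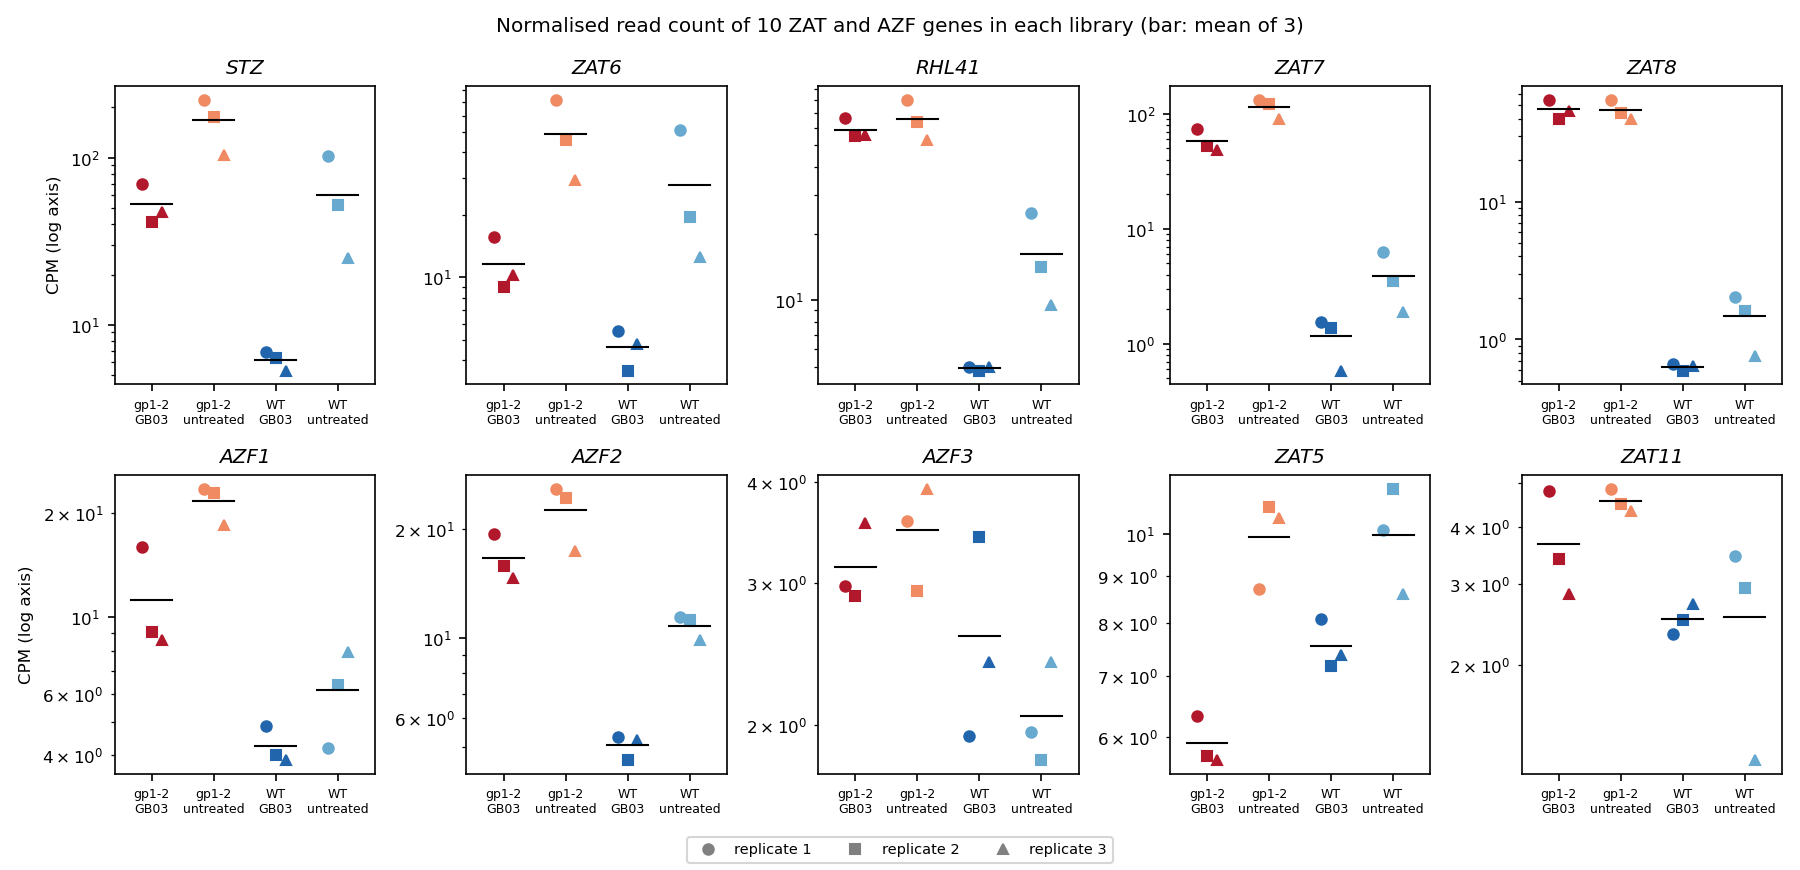
Normalised read count (CPM, log axis, separate scale per gene) of the 10 genes in each of the 12 libraries, with symbols for the replicate number and bars for the group mean (n = 3). ZAT7 and ZAT8 lie at 39.8 CPM or more in the gp1-2 libraries and at 6.29 CPM or less in the wild-type libraries, and STZ and ZAT6 are low in both exposed groups relative to their untreated groups.

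Levels of different genes were compared as CPM per kb of exon length. In gp1-2 with volatiles RHL41 (60.2 ± 6.34 CPM per kb), ZAT8 (59.5 ± 9.76) and ZAT7 (58.1 ± 14) led and differed by less than their SD (n = 3). STZ followed at 40.5 ± 11.3 CPM per kb, and each of the other 6 genes was at or below 11.9. In untreated gp1-2 STZ was at 128.7 ± 45.8 and ZAT7 at 114.5 ± 22.3 CPM per kb, again within their SD, above RHL41 at 67 ± 14.2 and ZAT8 at 58.8 ± 9.87. In wild type with volatiles ZAT7 (1.16 ± 0.51 CPM per kb) and ZAT8 (0.808 ± 0.0494) were the lowest of the 10. The other 8 genes there lay between 2.68 ± 0.202 (ZAT11) and 5.27 ± 0.332 CPM per kb (ZAT5), each within the larger SD of its neighbour in the order. In untreated wild type STZ (45.9 ± 30.0 CPM per kb), ZAT6 (21.4 ± 15.9) and RHL41 (16.5 ± 8) led with SDs that covered the differences between neighbours, and ZAT8 was lowest at 1.87 ± 0.819. The similar pair ZAT7 and ZAT8 thus stood at ranks 3 and 2 in gp1-2 with volatiles and at ranks 9 and 10 in wild type with volatiles. Summed over the 10 genes, the level was 269.1 ± 52.9 CPM in gp1-2 with volatiles, 505.7 ± 129.5 in untreated gp1-2, 39.5 ± 2.36 in wild type with volatiles and 140.9 ± 70.4 in untreated wild type (SD, n = 3).

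The first comparison asks how exposure to the volatiles changed these transcripts within a genotype. In gp1-2, 6 of the 10 genes fell with volatiles and none rose, where 32.3% of the 20736 genes tested were called in either direction and 17.6% were called lower. ZAT6 fell to 11.6 ± 3.52 CPM with volatiles, against 49.1 ± 21.3 CPM in untreated gp1-2 (log2 -2.08 ± 0.41, the error being the SE; adjusted p 0.0011 by edgeR). STZ fell to 52.8 ± 14.7 CPM, against 167.7 ± 59.7 CPM (-1.67 ± 0.36, edgeR adjusted p 0.0025), and ZAT7 to 58.3 ± 14 CPM, against 114.9 ± 22.3 CPM (-0.98 ± 0.22, edgeR adjusted p 0.0036). AZF1 (-0.95 ± 0.21), ZAT5 (-0.75 ± 0.13) and AZF2 (-0.44 ± 0.14) fell by less than 2-fold. RHL41 was at 59 ± 6.22 CPM with volatiles and 65.7 ± 14 CPM without (-0.16 ± 0.21), and ZAT8 at 46.8 ± 7.67 CPM with volatiles and 46.2 ± 7.76 CPM without (0.02 ± 0.15), and neither passed the test, nor did ZAT11 (-0.32 ± 0.24) or AZF3 (-0.14 ± 0.20). The median log2 fold change of the 10 genes was -0.59, beside 0.00 over all genes tested. The exposed and untreated libraries overlapped for AZF2, ZAT8, ZAT11, RHL41 and AZF3. They did not for the other 5 genes (5 of 10), close to the 47.3% of all genes tested whose libraries did not overlap.

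The AZF2 call in gp1-2 ended on thinned counts (-0.34, edgeR adjusted p 0.083) and without exposed replicate 2 (-0.41) or 3 (-0.35). It also ended without untreated replicate 1 (-0.33) or 2 (-0.38) and without replicate 1 of every group (-0.45). The ZAT7 call ended under DESeq2 (-0.96, adjusted p 0.064). Without replicate 2 in every group, the STZ (-1.50), ZAT7 (-0.88), AZF1 (-0.80) and AZF2 (-0.36) calls ended and those of ZAT5 and ZAT6 remained (2 of 6). Over all genes that fit called 2841, against 6707 with all libraries.

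In wild type, 7 of the 10 genes fell with volatiles and none rose, where 30.1% of all genes were called in either direction and 15.3% were called lower. STZ fell to 6.16 ± 0.798 CPM with volatiles, against 59.8 ± 39.1 CPM in untreated wild type, 9.77-fold lower (log2 -3.29 ± 0.43, adjusted p 5.1e-05 by edgeR). ZAT6 fell to 4.63 ± 1 CPM, against 27.9 ± 20.7 CPM (-2.61 ± 0.47, edgeR adjusted p 0.00077). RHL41 fell to 4.93 ± 0.11 CPM, against 16.2 ± 7.85 CPM (-1.74 ± 0.28, edgeR adjusted p 0.00028). ZAT7 (-1.80 ± 0.44), ZAT8 (-1.26 ± 0.39), AZF2 (-1.10 ± 0.17) and ZAT5 (-0.41 ± 0.13) fell as well. AZF1 (-0.51 ± 0.28), ZAT11 (-0.07 ± 0.29) and AZF3 (0.35 ± 0.25) did not pass the test. The median of the 10 was -1.18 on the log2 scale, beside 0.00 over all genes. The exposed and untreated libraries overlapped for AZF1, ZAT11 and AZF3 and did not for the 7 genes that fell (7 of 10). Over all genes tested the libraries did not overlap for 41.6%, called or not. Of the 10 genes, ZAT5, ZAT6, ZAT7, STZ and AZF2 (5 genes) were called lower in both genotypes, where 10.6% of all genes were. The fold changes of the genotypes share no library, but the calls share an estimate of the spread from all 12 libraries.

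The ZAT8 call in wild type ended under limma-voom (-1.14, adjusted p 0.14), on thinned counts (-1.0) and without exposed replicate 1 (-1.30), 2 (-1.21) or 3 (-1.27) or untreated replicate 1 (-0.97) or 2 (-1.23). The ZAT5 call ended under upper-quartile scaling (-0.37) and without exposed replicate 2 (-0.38) or 3 (-0.40) or untreated replicate 1 (-0.41) or 2 (-0.32), and the STZ, ZAT6, RHL41 and AZF2 calls held in all 22 alternative fits. Without replicate 2 in every group the ZAT7 (-2.03, edgeR adjusted p 0.052), ZAT8 (-1.17) and ZAT5 (-0.29) calls ended, and without replicate 1 in every group those of ZAT8 (-1.0) and ZAT5 (-0.46) ended while AZF1 was called (-0.84, edgeR adjusted p 0.014). Without untreated replicate 1, ZAT6 fell by 1.82 and STZ by 2.67 on the log2 scale.

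**Figure D3:**
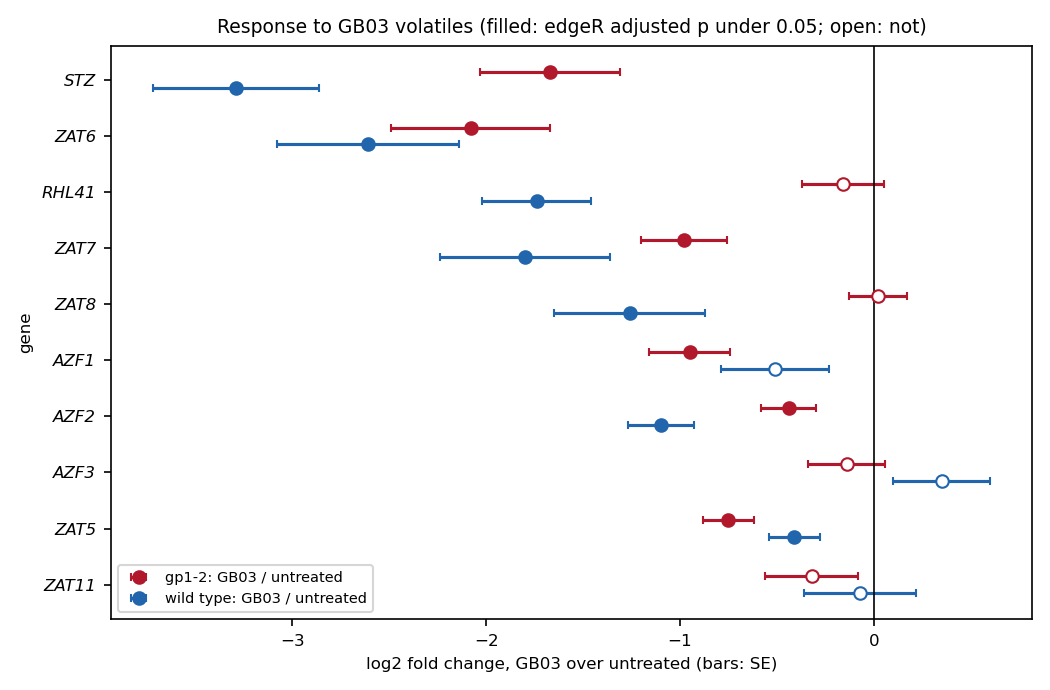
Log2 fold change of each gene with GB03 volatiles over untreated (x axis; bars, SE) in gp1-2 and in wild type, filled where the edgeR adjusted p was under 0.05. STZ and ZAT6 lie farthest below 0 in both genotypes, whereas RHL41 and ZAT8 lie below 0 in wild type and within 1 SE of 0 in gp1-2.

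The next comparison asks how the libraries labelled gp1-2 differed from wild type. With volatiles 7 of the 10 genes were higher in gp1-2 and 1 was lower, where 45.9% of all genes were called, 22.6% higher and 23.3% lower. Over all genes the calls were 4688 higher and 4837 lower, and under upper-quartile scaling 4064 higher and 6033 lower. ZAT8 averaged 46.8 ± 7.67 CPM in gp1-2 and 0.635 ± 0.0388 CPM in wild type, a log2 difference of 6.19 ± 0.24 (SE; edgeR adjusted p 1.3e-11) or 72.8-fold. ZAT7 averaged 58.3 ± 14 CPM in gp1-2 and 1.17 ± 0.512 CPM in wild type (5.64 ± 0.34, edgeR adjusted p 2.4e-09), a 49.8-fold difference. RHL41 was 12-fold higher (3.58 ± 0.26, edgeR adjusted p 2.3e-08) and STZ 8.55-fold higher (3.10 ± 0.43, edgeR adjusted p 2.2e-05). AZF2 (1.71 ± 0.16), AZF1 (1.39 ± 0.25) and ZAT6 (1.33 ± 0.48) were higher too. The libraries of the genotypes overlapped for AZF3 alone of the 10 genes, and they did not overlap for 54.2% of all genes tested. ZAT5 was lower, at 5.91 ± 0.365 CPM in gp1-2 and 7.54 ± 0.475 CPM in wild type (-0.35 ± 0.13, edgeR adjusted p 0.043). ZAT11 (0.54 ± 0.27) and AZF3 (0.28 ± 0.22) did not pass the test. The median log2 difference of the 10 genes was 1.55, beside -0.04 over all genes.

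The ZAT5 call was kept in 9 of 22 alternative fits. It ended on thinned counts (-0.11), with RLE scaling (-0.33), without the filter on low counts (-0.34), under DESeq2 (-0.33), without gp1-2 replicate 2 (-0.33) or 3 (-0.32) of the exposed libraries, without exposed wild-type replicate 1 (-0.30), 2 (-0.39) or 3 (-0.37), without untreated wild-type replicate 1 (-0.35) and without replicate 1 (-0.35), 2 (-0.37) or 3 (-0.34) of every group. The ZAT6 call ended under limma-voom (1.30), on thinned counts (1.28) and without exposed gp1-2 replicate 1 (1.06) or 3 (1.41). It also ended without exposed wild-type replicate 1 (1.47), 2 (1.17) or 3 (1.35) and without replicate 2 of every group (1.32). ZAT11 was called without untreated wild-type replicate 3 (0.54, edgeR adjusted p 0.046) and without replicate 3 of every group (0.76, edgeR adjusted p 0.022).

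Without volatiles 8 of the 10 genes were higher in gp1-2 and none was lower, where 37.2% of all genes were called and 20.0% were called higher. Over all genes the calls were 4156 higher and 3567 lower, and under upper-quartile scaling 3406 higher and 4769 lower. ZAT8 averaged 46.2 ± 7.76 CPM in gp1-2 and 1.47 ± 0.643 CPM in wild type (4.91 ± 0.22, edgeR adjusted p 6.9e-11). ZAT7 averaged 114.9 ± 22.3 CPM in gp1-2 and 3.92 ± 2.21 CPM in wild type (4.82 ± 0.29, edgeR adjusted p 3.2e-09). RHL41 (2.00 ± 0.23), AZF1 (1.83 ± 0.24), STZ (1.48 ± 0.36) and AZF2 (1.05 ± 0.15) were also higher, as were ZAT11 (0.79 ± 0.27) and AZF3 (0.78 ± 0.23). ZAT6 was at 49.1 ± 21.3 CPM in gp1-2 and 27.9 ± 20.7 CPM in wild type, and its difference did not pass the test (0.80 ± 0.39, edgeR adjusted p 0.13). With the replicate number as a block over all 12 libraries, ZAT6 was called (0.90, edgeR adjusted p 0.003), so that 9 of 10 genes were higher. ZAT5 was at 9.93 ± 1.07 CPM in gp1-2 and 9.96 ± 1.3 CPM in wild type (-0.01 ± 0.13). The median difference of the 10 genes was 1.26 on the log2 scale, beside -0.02 over all genes. ZAT7, ZAT8, STZ, RHL41, AZF1 and AZF2 (6 genes) were called higher in gp1-2 in both conditions, where 16.6% of all genes were. Without volatiles the libraries of the genotypes did not overlap for these 6 genes nor for ZAT11 and AZF3 (8 of 10), and over all genes they did not for 47.6%. The comparisons of genotypes use the same libraries as those of volatiles, so the 2 kinds are not independent.

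The ZAT11 call ended under upper-quartile scaling (0.70) and without untreated gp1-2 replicate 1 (0.74), 2 (0.80) or 3 (0.82). It also ended without untreated wild-type replicate 3 (0.51) and without replicate 2 (0.91) or 3 (0.54) of every group. The AZF3 call ended without untreated gp1-2 replicate 3 (0.68), untreated wild-type replicate 2 (0.70) and replicate 1 (0.73) or 3 (0.79) of every group. ZAT6 was called without untreated wild-type replicate 1 (1.59, edgeR adjusted p 0.0012) and without replicate 1 of every group (1.22, edgeR adjusted p 0.0021). The STZ call ended without replicate 2 of every group (1.36, edgeR adjusted p 0.085). Without untreated wild-type replicate 1 the STZ difference was 2.1 on the log2 scale.

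**Figure D4:**
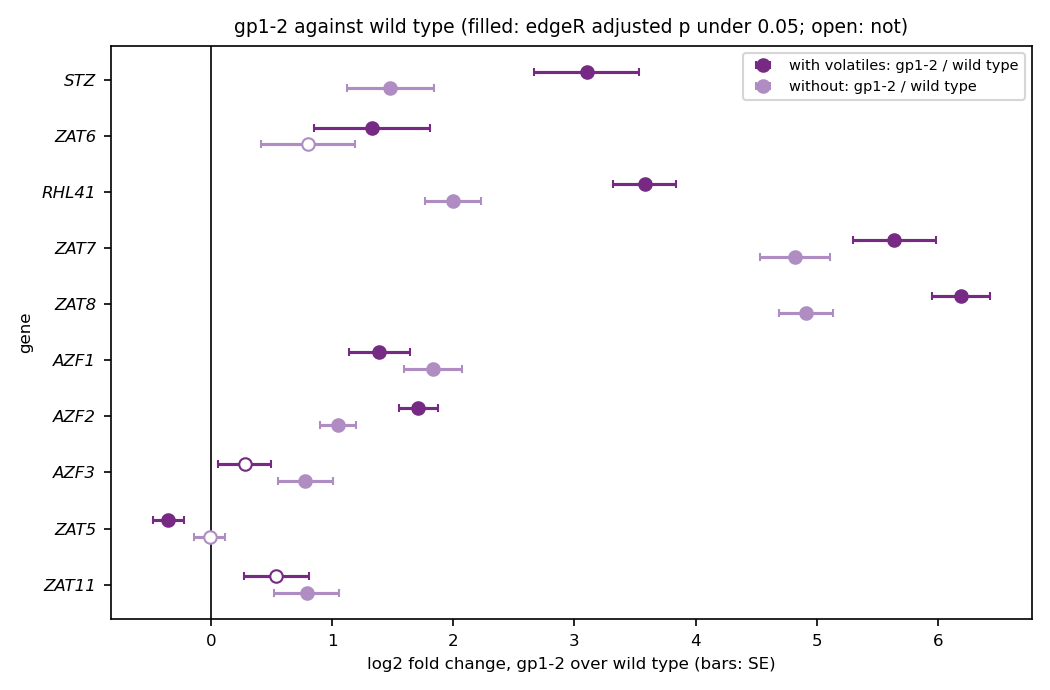
Log2 difference of each gene in gp1-2 over wild type (x axis; bars, SE) with and without volatiles, filled where the edgeR adjusted p was under 0.05. ZAT7 and ZAT8 lie between 4.82 and 6.19 in both conditions, and ZAT5 lies at or below 0.

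The shoot markers moved with genotype. All 4 (RBCS1A, CAB1, CAB2 and RCA) were called lower in gp1-2 in both conditions. Over all genes, 23.3% were called lower with volatiles, and 37.2% were called in either direction without. In gp1-2 with volatiles 3 of the 4 fell and 1 rose, where 32.3% of all genes were called. In wild type with volatiles CAB2 rose (1.01 ± 0.12) and RCA fell (-0.60 ± 0.09). Their summed level was 12301.6 to 13838.6 CPM in gp1-2 with volatiles and 17195.9 to 17961.9 CPM in untreated gp1-2, against 29254.7 to 32535.3 CPM in wild type with volatiles and 26298.1 to 33783.1 CPM in untreated wild type. The 4 root markers summed to 2547.5 to 2838.9 CPM in gp1-2 with volatiles, 2597.8 to 2735.9 CPM in untreated gp1-2, 3088.2 to 3157.5 CPM in wild type with volatiles and 2759.3 to 2943.7 CPM in untreated wild type. Most of that sum was PYK10, which passed no test of volatiles or genotype, whereas EXPA7 (0.38 ± 0.13 in gp1-2 and 0.50 ± 0.14 in wild type) and RCI3 (0.39 ± 0.09 in gp1-2 and 0.58 ± 0.09 in wild type) rose with volatiles and COBL9 was lower in gp1-2 with volatiles (-0.37 ± 0.13). The part of either marker list in the differences of the zinc finger genes was not tested.

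The response to volatiles was then compared between the genotypes by the interaction term, the log2 change in gp1-2 minus that in wild type. It was called for RHL41 alone of the 10 genes, where 2.80% of all genes were called. RHL41 was 1.11-fold lower with volatiles in gp1-2 and 3.34-fold lower in wild type, a difference of 1.58 ± 0.35 on the log2 scale (SE; edgeR adjusted p 0.025). At an unadjusted p under 0.05 the differences of STZ (1.62 ± 0.55), ZAT8 (1.28 ± 0.42) and AZF2 (0.66 ± 0.22) also stood, giving 4 of 10 genes, where 15.1% of all genes were under it, and their edgeR adjusted p-values were 0.15, 0.13 and 0.14. The remaining 6 genes had differences between -0.49 and 0.82. The median of the 10 was 0.60, beside -0.02 over all genes. The RHL41 call held in each of 7 alternatives with all libraries (edgeR, DESeq2 and limma-voom adjusted p 0.00035 to 0.048), and in 8 of 15 fits with libraries left out. It ended without exposed gp1-2 replicate 1 (1.49), untreated gp1-2 replicate 2 (1.56) or exposed wild-type replicate 1 (1.59), 2 (1.56) or 3 (1.59), and without replicate 1 (1.23) or 2 (1.67) of every group. STZ was called without untreated wild-type replicate 3 (1.98, edgeR adjusted p 0.025), and DESeq2 called ZAT8 (1.32, adjusted p 0.027). With the replicate number as a block, edgeR called STZ (1.54, adjusted p 0.017), ZAT8 (1.27, adjusted p 0.033) and AZF2 (0.66, adjusted p 0.047) beside RHL41.

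STZ and ZAT6 varied widely within a group. In untreated wild type the highest library was 4.06 times the lowest for STZ and 4.08 times for ZAT6, wider than for 98.7% of genes each, where the median gene had a ratio of 1.23. In wild type with volatiles the ratio for RHL41 was 1.04. Replicate 1 was the highest library of its group in 32 of 40 combinations of gene and group. By group it was highest for 9 of 10 genes in gp1-2 with volatiles, 8 in untreated gp1-2, 8 in wild type with volatiles and 7 in untreated wild type. Over all genes tested, replicate 1 was highest for 32.8%, 30.4%, 30.6% and 32.9% in the same 4 groups. Replicate 3 was the lowest in 24 of 40 combinations. The 12 early stress-response genes described below followed a like order, with replicate 1 highest in 34 of 48 combinations. The labels give no shared day or batch for a number, and what sets this order was not tested.

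**Figure D5:**
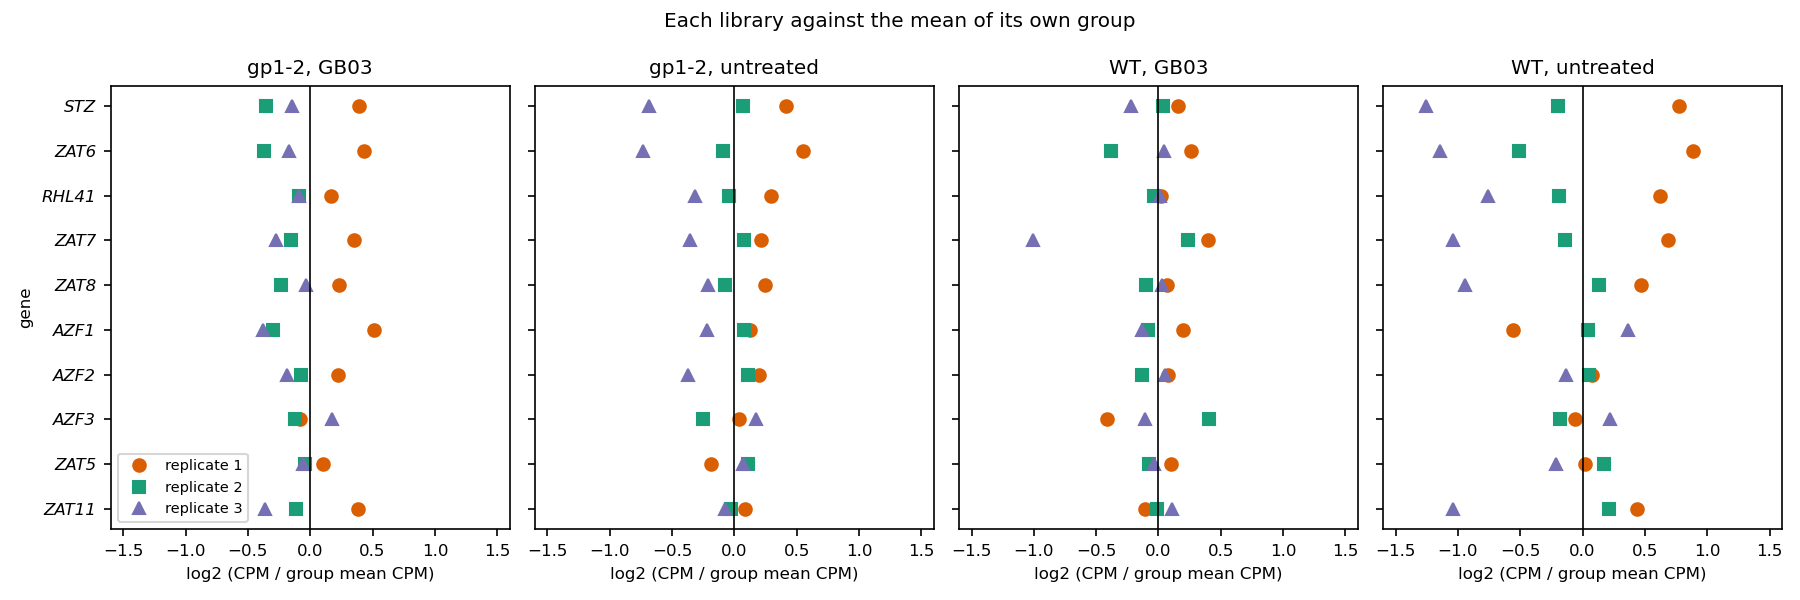
Level of each gene in each library relative to the mean of its own group (x axis, log2 of CPM over the group mean), in 4 panels for the groups. Replicate 1 (circles) lies to the right in 32 of 40 combinations, and the widest spread is that of STZ and ZAT6 in untreated wild type.

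Genes that act upstream were read from a list of 13 kinases and regulators. In gp1-2, 1 rose and 5 fell with volatiles, where 32.3% of all genes were called, and in wild type none rose and 6 fell, where 30.1% were. With volatiles 9 were higher in gp1-2 than in wild type and none lower (45.9% of all genes called), and without volatiles 9 were higher and 1 lower (37.2% of all genes called). WRKY33, a central regulator of defence transcription, was at 282.6 ± 75.4 CPM in gp1-2 with volatiles and 492.2 ± 95.6 CPM in untreated gp1-2, and at 28.9 ± 4.66 CPM in wild type with volatiles and 257.7 ± 95.1 CPM in untreated wild type. WRKY40 was at 78.8 ± 22.4 CPM in gp1-2 with volatiles, 180.8 ± 29.9 CPM in untreated gp1-2, 3.84 ± 1.03 CPM in wild type with volatiles and 64.1 ± 41 CPM in untreated wild type. Both fell in both genotypes, and their fall was smaller in gp1-2, with edgeR interactions of 2.36 ± 0.35 (adjusted p 0.0023) and 2.87 ± 0.54 (adjusted p 0.01). MPK3 also fell in both genotypes (-0.48 ± 0.13 in gp1-2 and -1.43 ± 0.13 in wild type), and MPK6 passed neither test of volatiles. HSFA4A, a heat shock factor reported to act on RHL41, was 4.44-fold higher in gp1-2 with volatiles (2.15 ± 0.22, edgeR adjusted p 1.1e-06). CAMTA3, whose family binds the CGCGT core, was 1.97-fold higher in gp1-2 with volatiles (0.98 ± 0.14) and 1.54-fold higher without (0.62 ± 0.14). Its relatives CAMTA1 (-0.04 ± 0.15 with and 0.00 ± 0.15 without volatiles) and CAMTA2 (0.27 ± 0.12 with and 0.19 ± 0.12 without) did not pass the test. Median log2 differences of the 13 were 0.98 with and 0.69 without volatiles. Without replicate 2 of every group the count of calls with volatiles in gp1-2 was 2, against 6 with all libraries. Over all genes these counts were 2841 and 6707.

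The 6 co-repressor genes, TPL, TPR1 to TPR4 and SAP18, passed no test of volatiles in gp1-2 or wild type (32.3% and 30.1% of all genes called). Between genotypes 1 gene was called with volatiles and none without, where 45.9% and 37.2% of all genes were called. That gene was TPL, at 166.3 ± 17 CPM in gp1-2 and 126.9 ± 27.4 CPM in wild type with volatiles (0.39 ± 0.13, edgeR adjusted p 0.026).

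Genes reported downstream of ZAT and AZF factors numbered 15, of which 14 passed the filter. The 15th, APX2, had at most 0.134 CPM in a library. In gp1-2, 3 rose and 2 fell with volatiles, a share close to the 32.3% of all genes called, and in wild type 2 rose and 4 fell, beside 30.1%. With volatiles 4 were higher in gp1-2 than in wild type and 4 lower (45.9% of all genes called), and without volatiles 6 were higher and 6 lower (37.2% of all genes called). APX1 was at 976.6 ± 70.8 CPM in gp1-2 and 534.5 ± 52.6 CPM in wild type with volatiles (0.87 ± 0.13, edgeR adjusted p 4e-05). PCS1, the phytochelatin synthase gene, was higher as well (1.22 ± 0.10). The cold and drought genes RD29A (-0.70 ± 0.15) and COR15A (-1.29 ± 0.26) were lower in gp1-2 with volatiles, and CBF1, an activator of the cold response, was lower too (-2.18 ± 0.69) at counts of 0.116 to 1.25 CPM. The median log2 differences of the 14 genes were -0.06 with and -0.34 without volatiles. The count of calls with volatiles in gp1-2 was 0 without replicate 1 and 1 without replicate 2 of every group. Over all genes these fits called 3765 and 2841, against 6707 with all libraries.

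The 12 early stress-response genes, a list written with their values in these data known, hold ERF factors, the zinc finger genes SZF1 and SZF2 and others that are induced within minutes by many stimuli. Of the 12, 7 fell with volatiles in gp1-2 and 10 fell in wild type, with none higher, where 17.6% and 15.3% of all genes were called lower, and their median log2 changes were -1.37 and -2.69. With volatiles 8 were higher in gp1-2 than in wild type, and without volatiles 2 were, SZF2 and CAF1b, where 22.6% and 20.0% of all genes were called higher. For the 10 zinc finger genes these counts were 7 and 8, and the difference between the lists was not tested. Without replicate 2 of every group, 2 of the 12 were called with volatiles in gp1-2, where 2841 of all genes were, against 6707 with all libraries. ERF104, which MPK6 phosphorylates, was at 149.1 ± 62.4 CPM in untreated gp1-2 and 134 ± 95.6 CPM in untreated wild type, and its difference did not pass the test.

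A further 16 genes of the annotation encode the plant zinc finger core (QALGGH) exactly 2 times and are not among the 10. Fingers with another core were not counted. Of these, 10 passed the filter. With volatiles 1 rose and 1 fell in gp1-2 and none was called in wild type, where 32.3% and 30.1% of all genes were called. Between genotypes 2 were higher and 1 lower with volatiles (45.9% of all genes called), and 2 were higher without (37.2% of all genes called). The gene that rose in gp1-2, AT3G53600, was at 1.51 ± 0.423 CPM with volatiles and 0.201 ± 0.087 CPM in untreated gp1-2 (2.88 ± 0.50, edgeR adjusted p 0.00042). AT3G46070, whose coding sequence is 76.9% identical to that of ZAT8, had at most 0.116 CPM in any library. Summed over the 16, the level was 14.2 ± 1.64 CPM in gp1-2 with volatiles, 15.7 ± 1.8 in untreated gp1-2, 13.4 ± 0.825 in wild type with volatiles and 14.7 ± 0.78 in untreated wild type.

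Genes with the most similar pattern over the 12 libraries were found by the root mean square difference of log2 CPM, each gene centred on its own mean. For STZ the nearest was AT1G72910 (0.243), and ERF13 was also near (0.38). The median gene lay 1.80 away, close to the root mean square of STZ around its own mean (1.76). For ZAT6 the nearest were ERF104 (0.374) and TEM1 (0.382). For ZAT7 the nearest was WRKY46 (0.315), with CBP60G also near (0.504), and for ZAT8 it was FRK1 (0.296), a receptor kinase gene used as a marker of pattern-triggered immunity. RHL41 lay closest to AT1G20310 (0.265) and AZF2 to PUB39 (0.165). Among the 10 genes the pairs that were each other's closest were AZF1 with AZF2 (0.411), ZAT11 with AZF3 (0.485), ZAT7 with ZAT8 (0.532) and STZ with ZAT6 (0.693), while ZAT5 lay closest to AZF3 (0.551) and RHL41 to AZF2 (0.802). For each of the 10 genes the nearest gene of the table was closer than any other member. The nearest gene was picked from all other genes tested and the closest member from the members alone. The larger pool favours the nearest gene, so this order says nothing about the family.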

How the data were processed

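RNA of whole Arabidopsis seedlings was sequenced in 12 libraries, 3 for each of 4 groups. The deposited table holds raw read counts of 33602 genes. Per the submitters' processing notes, the authors used Trimmomatic 0.36, HISAT2 2.1.0 and HTSeq 0.9.1 with the TAIR10 build; strand setting, annotation and the handling of reads shared between genes are not given in the sources used here. The files hold no coordinates, and gene models and sequences come from RefSeq TAIR10.1, matched by locus identifier.

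Counts were filtered with filterByExpr (20736 genes left), scaled by TMM and fitted over all 4 groups with edgeR 4.0.16 (quasi-likelihood test, R 4.3.3), with Benjamini-Hochberg adjustment over all genes tested and a threshold of 0.05. CPM use TMM-scaled totals. The biological coefficient of variation was 0.109. The edgeR test was also run on simulated counts in which every gene had this variation. That run does not cover genes that vary as widely as STZ and ZAT6. Total counts of 11158051 to 25214934 set the counting precision, and replicates differed by more than sampling noise (2.58 to 15.3 as chi-square over its degrees of freedom). P-values of the main fit set a group difference against the spread between replicates, estimated over all 12 libraries jointly.

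Alternatives were RLE and upper-quartile scaling, no filter on low counts, DESeq2 1.42.0, limma-voom (limma 3.58.1), a replicate block, thinned counts, and leaving out each library or replicate number; leaving out replicate 1 or 2 of every group was chosen after seeing the data. Deviations of same-numbered libraries correlated above 0.1 in every pair only between the untreated groups (0.218, 0.113 and 0.17). They correlated at 0.035, 0.152 and 0.253 between the exposed groups and at 0.048, 0.114 and 0.186 between the gp1-2 groups. Between the wild-type groups they correlated at -0.032, 0.046 and -0.01. The block was fitted over all 12 libraries. The 10 genes and the gene lists were chosen with earlier results of these data known. All 10 genes are named, with the 3 nearest genes computed for each, and up to 4 genes of a list, by size of change or where the text explains them. Family members were genes whose RefSeq coding sequence encodes the plant zinc finger core exactly 2 times.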

Additional observations from a re-analysis of the deposited data

Results flagged for a closer look

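The response to volatiles differed between genotypes, by edgeR's test of the interaction (log2 change in gp1-2 minus that in wild type), for 1 of the 10 zinc finger genes. RHL41 differed by 1.58 ± 0.35 (SE; edgeR adjusted p 0.025). Among the genes of the accompanying lists, WRKY40 differed by 2.87 ± 0.54 (edgeR adjusted p 0.01), WRKY33 by 2.36 ± 0.35 (edgeR adjusted p 0.0023) and ERF6 by 1.6 ± 0.25 (edgeR adjusted p 0.003). The kinase genes MPK3 and MKK4 differed by 0.96 ± 0.18 (edgeR adjusted p 0.012) and 0.67 ± 0.14 (edgeR adjusted p 0.022). These 6 differences are positive. The shoot marker RCA (-0.63 ± 0.13, edgeR adjusted p 0.015) and FAB2 (-0.60 ± 0.15, edgeR adjusted p 0.048) differed in the other direction. Of the 13 upstream genes 4 were called, where 2.80% of all genes were. The count was 1, 0 and 4 without replicate 1, 2 and 3 of every group. Over all genes it was 120, 18 and 831 in these fits, against 580 with all libraries.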

How the results depend on the processing

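With all libraries kept, the 7 alternatives called 5 to 6 of the 10 genes for volatiles in gp1-2, 6 to 7 in wild type, 6 to 8 between genotypes with volatiles and 7 to 9 without, every count within 1.5 times the main one. The interaction was called for 941 genes and 2 members by DESeq2 and for 1038 genes and 4 members with the replicate block, against 580 genes and 1 member. The block called 7775 genes and 6 members for volatiles in gp1-2, and 7138 and 7 in wild type. Between genotypes it called 10273 genes and 8 members with volatiles, and 8542 and 9 without. Only between the untreated groups did every same-numbered pair of libraries correlate above 0.1. In 15 fits with libraries left out, genes called ranged over 2841 to 7451 for volatiles in gp1-2 (members 2 to 6), 2653 to 6516 in wild type (4 to 7), 6571 to 9749 between genotypes with volatiles (6 to 9), 4783 to 8166 without (6 to 9) and 18 to 831 for the interaction (0 to 2). The lowest gene counts came without replicate 2 of every group, and the highest with volatiles in either genotype came without replicate 3 of every group, which leaves as few libraries. Signs turned only in results that were not called: the ZAT11 change in wild type was 0.016 with limma-voom and 0.013 on thinned counts, and the ZAT5 difference without volatiles was 0.084 on thinned counts. Over the leave-out fits the ranges were -0.112 to 0.159 for ZAT8 and -0.291 to 0.017 for RHL41 with volatiles in gp1-2, -0.402 to 0.249 for ZAT11 in wild type, -0.134 to 0.085 for ZAT5 between untreated genotypes, and -0.265 to 0.905 for ZAT6 and -0.749 to 0.211 for ZAT11 in the interaction. The causes were not tested. Depth limits ZAT7 and ZAT8 in wild type, where single libraries hold as few as 8 reads.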
